A study of Mus musculus with 6 samples.

Results

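Aquaporins are pore proteins that let water cross cell membranes along osmotic gradients. Members that pass mainly water are set apart from the aquaglyceroporins, which also pass glycerol and other small solutes, and from the more distant Aqp11, which lies in membranes inside the cell. In the colon, where most of the water left by the small intestine is taken up, Aqp8 is known in absorptive cells at the surface, Aqp4 and Aqp3 in the basolateral membrane of epithelial cells, and Aqp1 in the endothelium of vessels.

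The 8 genes described here were Aqp1, Aqp3, Aqp4, Aqp5, Aqp7, Aqp8, Aqp9 and Aqp11. They were found by name among 18193 genes of the arrays, and a gene was measured by those probe sets, the groups of probes for 1 transcript, that carry its symbol alone. Together they had 17 of the 45037 probe sets tested. Each gene was represented by the probe set with the highest mean over the 6 arrays, and the others served as a check.

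RNA had been taken from the colon of 3 Hnf4α mutant mice and 3 control littermates at 1 year of age and hybridised to 1 Affymetrix mouse genome array per mouse. The mutants carried floxed Hnf4α alleles and Cre under the Villin promoter, which is active in intestinal epithelial cells only, so that other cells of the colon kept the gene. The controls are labelled wild type, and whether they carried floxed alleles or Cre is not stated. The methods name the proximal colon, all mice were kept free of pathogens, and all were given ketamine and xylazine before they were killed.

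Hnf4a, the deleted gene, fell. It measured 10.17, 10.09 and 10.15 in mutant replicates 1, 2 and 3, against 12.23, 12.01 and 11.97 in control replicates 1, 2 and 3, on the log2 scale of the arrays. The labels call mutant replicate 1 and the controls female and mutant replicates 2 and 3 male, but Xist RNA was between 5.03 and 5.32 in all 3 mutants and between 9.94 and 10.96 in the controls, so that mutant replicate 1 goes against its label. Sex and genotype cannot be told apart in any comparison of these arrays. In mutant replicate 2 the median of 10 smooth muscle markers was -4.21 relative to the mean of the controls, against -0.30 and -0.46 in mutant replicates 1 and 3, and 9 fibroblast and matrix markers stood at -3.47 there, against -0.29 and -0.59. The 12 markers of the gut epithelium had medians between 0.05 and 0.21 in the mutants and between -0.06 and 0.06 in the controls. As whole tissue was measured, a change in the number of cells of a type and a change in the RNA of each cell cannot be told apart.

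None of the 8 aquaporin genes passed an adjusted p of 0.05 from limma over all probe sets, where 0.879% of the 18193 genes and 0.531% of the 45037 probe sets did. At an unadjusted p of 0.05 or less, Aqp3 and Aqp4 were higher and Aqp1 was lower in the mutants, by limma and by SAM, the test of the study. That is 3 of 8 genes, where limma gave 16.2% of all genes at this threshold, 10.0% higher and 6.18% lower. The 3 mutants lay apart from the 3 controls for Aqp3 and Aqp4, 2 of 8 genes, against 23.3% of all genes, 14.5% with the mutants above and 8.86% with the mutants below. Among the 17 probe sets, 7 separated the groups, against 19.7% of all probe sets. In all 7 the mutants lay above, as in 12.4% of all probe sets, and they belonged to Aqp3, Aqp4 and Aqp11. Probe sets of the same gene are not independent, so these 7 are not separate results. The median log2 fold change of the 8 genes, mutant minus control, was 0.06, and that of all genes was 0.05. The family as a whole therefore had a median near that of all genes, with single members far from it. With 3 mice a group, a two-sided exact permutation test cannot go under 0.1, and Aqp3 and Aqp4 were at this limit.

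**Figure D1:**
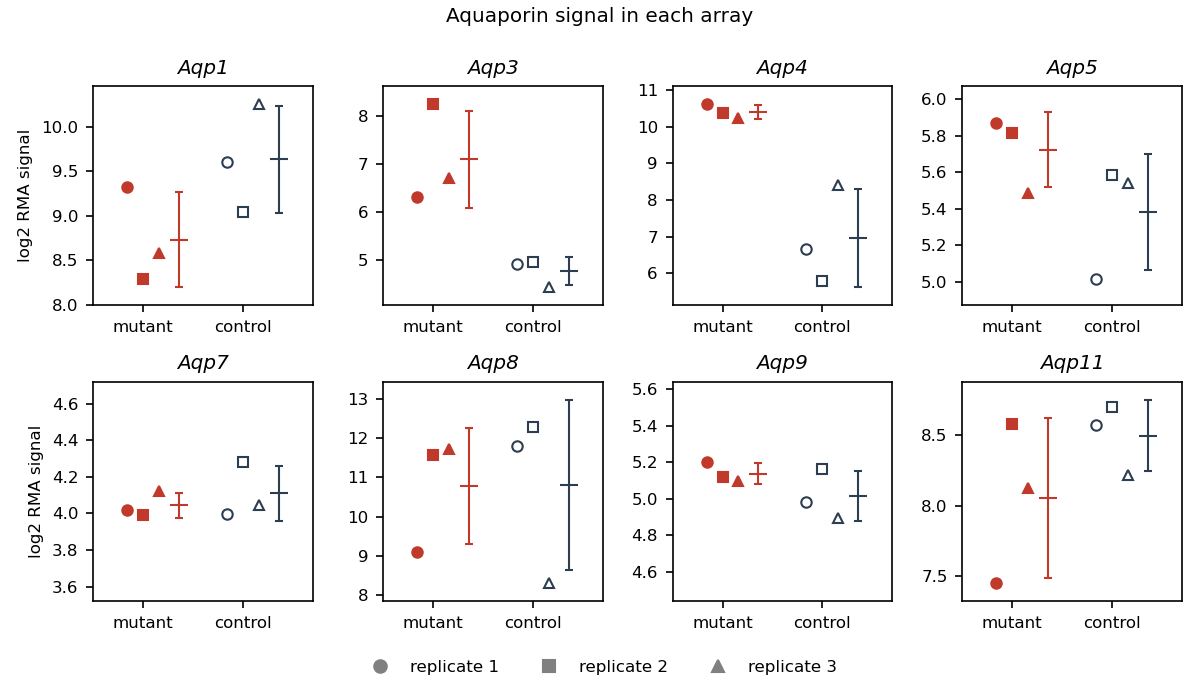
Log2 RMA signal (vertical axis, a separate scale for each gene) of 8 aquaporin genes in each array. Filled symbols are mutants and open symbols controls, the shape gives the replicate, and the bar to the right of each group is its mean and SD (n = 3). The groups lie apart for Aqp3 and Aqp4, while Aqp8 has 1 low array in either group, at 9.09 and 8.32.

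The upstream sequences of Aqp3 and Aqp8 are shown because the first gene was higher in all mutants and the second varied most among mice of 1 genotype. Both come from RefSeq on GRCm38.p6 and cover the 250 bases before the gene's start, 5′ to 3′ on the strand of the gene. Aqp3 lies at chr4:41098184-41098433 on the minus strand and Aqp8 at chr7:123462044-123462293 on the plus strand. Capitals mark the only match found to any motif searched, a TATA box.
Aqp3: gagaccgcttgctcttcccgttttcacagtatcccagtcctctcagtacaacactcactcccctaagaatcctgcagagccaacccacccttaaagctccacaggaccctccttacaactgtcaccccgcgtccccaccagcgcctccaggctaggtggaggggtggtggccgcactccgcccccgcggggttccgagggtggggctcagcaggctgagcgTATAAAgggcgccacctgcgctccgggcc
Aqp8: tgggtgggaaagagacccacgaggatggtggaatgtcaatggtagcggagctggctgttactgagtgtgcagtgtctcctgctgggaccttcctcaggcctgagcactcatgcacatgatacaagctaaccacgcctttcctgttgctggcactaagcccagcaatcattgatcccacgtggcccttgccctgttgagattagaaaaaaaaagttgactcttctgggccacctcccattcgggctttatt
The motifs searched on both strands were CAAAGTNCA, the core that HNF4 proteins are known to bind, its first part CAAAGT, the nuclear receptor half-site AGGTCA and the TATA box TATAAA. Of 32851 windows of this length in the RefSeq table, 1.19% held CAAAGTNCA, 12.6% CAAAGT, 14.0% AGGTCA and 12.4% TATAAA. Aqp1, Aqp3, Aqp5, Aqp7, Aqp8, Aqp9 and Aqp11 were in that table and Aqp4 was not. No window of these 7 genes held CAAAGTNCA. The TATA box of Aqp3 lay 29 to 24 bases before the start, Aqp7 and Aqp11 held AGGTCA and 1 of the windows of Aqp9 held CAAAGT. Such matches describe the letters and do not show binding.

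Aqp4, a channel selective for water, had the widest difference of the family. Its log2 signal was 10.61, 10.37 and 10.23 in mutant replicates 1, 2 and 3, against 6.67, 5.79 and 8.41 in control replicates 1, 2 and 3. Every mutant lay above every control, the mutants within a narrow band and the controls wide apart. The means were 10.40 ± 0.19 (SD, n = 3) in mutants and 6.96 ± 1.33 (SD, n = 3) in controls, a ratio of 10.9. The log2 fold change was 3.45 (standard error 0.60, 95% confidence interval 2.03 to 4.87, adjusted p = 0.0774 from limma), the place 8 from the top among all 18193 genes by size of rise. The other probe sets of Aqp4 gave 3.29 (standard error 0.51, adjusted p = 0.0575) and 2.62 (standard error 0.42, adjusted p = 0.0611), each with the 3 mutants above the 3 controls. Both also placed control replicate 3 highest among the controls, at 8.25 and 6.82, so that the high control was not a matter of 1 probe set. With that array left out the log2 fold change was 4.17 and Aqp4 passed the test (adjusted p = 0.00661, from 0.00661 to 0.512 over the 18 alternatives for Aqp4 fitted and adjusted in limma).

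Aqp4 is also known in glia, and markers of enteric neurons and glia were compared. Of 5 measured, none rose or fell, and their median relative to the controls was 0.10, -0.25 and -0.30 in mutant replicates 1, 2 and 3. The glial markers Sox10, S100b and Gfap had log2 fold changes of -0.04, -0.12 and 0.0042, with overlapping groups. The neuronal markers Uchl1 (-0.98, adjusted p = 0.229) and Elavl4 (-0.44, adjusted p = 0.335) did not pass the test. Both were lower in every mutant than in any control, as were 8.86% of all genes. The log2 of the summed signal of all 5 was between 8.06 and 8.57 in mutants and between 8.69 and 8.76 in controls. The part of these cells in the Aqp4 signal was not tested. The genes most like Aqp4 over the 6 arrays, among 2568 genes with a range of at least 1, were Hsd17b14 (r = 0.993), Il1rn, the interleukin-1 receptor antagonist (r = 0.989), and Wfdc2, a secreted protein of epithelia (r = 0.989). These correlations describe 6 arrays in 2 groups and have no test. Il1rn followed the same order within the controls, with 10.42, 9.84 and 10.25 in mutants against 6.85, 6.38 and 8.05 in controls. As Il1rn was picked by its correlation over these arrays, the shared order is no separate finding.

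Aqp8, the water channel of absorptive colonocytes, did not separate the groups. Its log2 signal was 9.09, 11.56 and 11.73 in mutant replicates 1, 2 and 3, against 11.80, 12.29 and 8.32 in control replicates 1, 2 and 3. One mutant and 1 control were low and the other mice of both genotypes were high. The means were 10.79 ± 1.48 (SD, n = 3) in mutants and 10.80 ± 2.16 (SD, n = 3) in controls. The log2 fold change was -0.01 with a standard error of 1.15 and an adjusted p = 0.998, and its 95% confidence interval from -2.75 to 2.73 leaves room for large changes in either direction, so that similar levels were not shown. Of all 18193 genes, 6 had a range among the controls at least as wide as that of Aqp8, itself included. Aqp8 had 1 probe set, so the spread could not be checked with another. Without mutant replicate 1 the log2 fold change was 0.84 and without control replicate 3 it was -1.25, and neither passed the test.

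Slc26a3, the chloride-bicarbonate exchanger of the surface epithelium, was among the 3 genes most like Aqp8 (r = 0.988 over 6 arrays), beside Rnf152 (r = 0.991) and Asap1 (r = 0.968). It had 11.59, 12.60 and 12.45 in mutants against 12.79, 12.81 and 11.24 in controls, low in the same mutant and the same control as Aqp8. As it was picked by its correlation over these arrays, this match came with the choice. Of 7 surface colonocyte markers, Slc20a1 and Guca2a were also lowest of their group in both arrays, and Car4, Krt20, Muc3 and Ceacam1 were not. Car4 and Ceacam1 were highest of the controls in control replicate 3, at 12.29 and 13.85, and Krt20 highest of the mutants in mutant replicate 1, at 12.84. The arrays of mutant replicate 1 and control replicate 3 resembled each other beyond these genes. Over all probe sets, their deviations from the mean of their own group had a correlation of 0.38, and the other 8 pairs of a mutant and a control had between -0.29 and 0.25. Mutant replicate 1 was the highest mutant and control replicate 3 the highest control for Aqp1 and Aqp4, and both were lowest of their group for Aqp3, Aqp8 and Aqp11. Over all genes, 12.7% were highest and 17.1% lowest in both of these arrays. The part of this shared pattern in the comparison of genotypes was not tested.

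**Figure D2:**
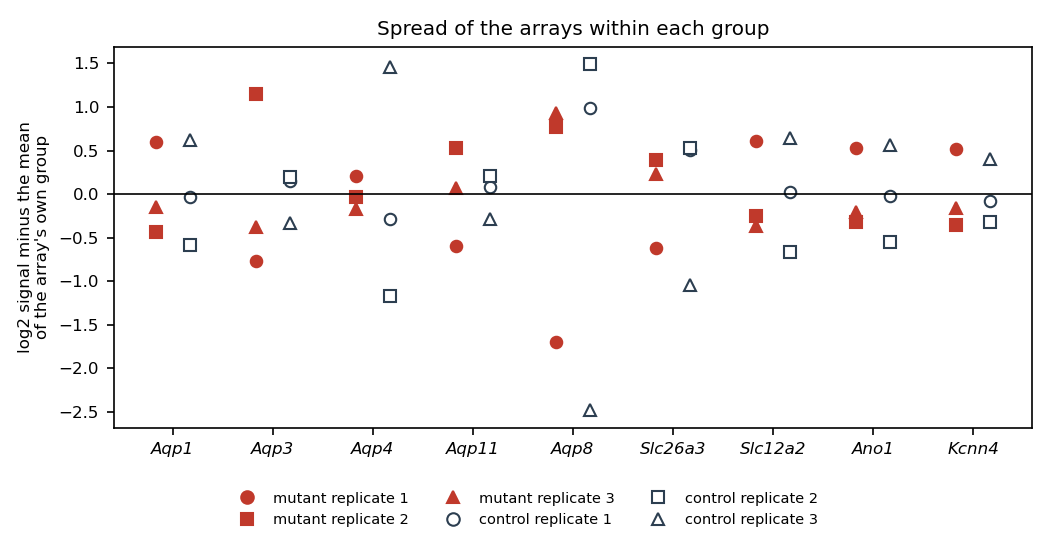
Log2 signal minus the mean of the array's own group (vertical axis) for 5 aquaporins and 4 genes of colonic ion transport, with mutants as filled and controls as open symbols. Mutant replicate 1 and control replicate 3 lie below their groups for Aqp8, at -1.70 and -2.48, and above them for Aqp1, at 0.59 and 0.62. The 4 transport genes were chosen after their values were seen.

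Aqp1, the water channel of endothelium and red cells, had a log2 signal of 9.33, 8.29 and 8.58 in mutant replicates 1, 2 and 3, against 9.60, 9.05 and 10.25 in control replicates 1, 2 and 3. The groups overlapped, since mutant replicate 1 lay above control replicate 2. The log2 fold change was -0.90 (standard error 0.36, 95% confidence interval -1.76 to -0.04, adjusted p = 0.369), a ratio of 0.536. Of 10 endothelial markers none rose or fell, but all 10 averaged lower in the mutants, the median log2 fold change being -0.69, and in 8 the mutants lay below all controls, as in 8.86% of all genes. Their median relative to the controls was -0.20, -1.39 and -0.31 in mutant replicates 1, 2 and 3 and between -0.03 and 0.04 in the controls. The log2 of their summed signal was between 8.99 and 10.08 in mutants and between 10.27 and 10.35 in controls. Aqp1 was lowest in mutant replicate 2, where the endothelial, smooth muscle and matrix markers were lowest too. Among the controls Aqp1 was between 9.05 and 10.25. Without mutant replicate 2 the log2 fold change of Aqp1 was -0.68, and without control replicate 3 it was -0.59 (adjusted p = 0.684, between 0.156 and 0.999 over 15 alternatives fitted and adjusted in limma). Of 3 erythroid markers measured none rose or fell, with a median log2 fold change of 0.02. Hba-a1, between 3.13 and 3.56, lay within the range of 2.75 to 4.01 that 3 Y-linked genes had in controls, which carried female RNA. For Epb42, between 4.58 and 4.84, the mutants lay below all controls, as in 8.86% of all genes. The 3 markers were dim and cannot show that red cells were unchanged. The part of vessels in the Aqp1 signal was not tested.

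Aqp5, a water channel best known from the apical membrane of salivary and other glands, had 5.87, 5.81 and 5.49 in mutants against 5.02, 5.59 and 5.54 in controls. The groups overlapped, and a log2 fold change of 0.34 had a 95% confidence interval of -0.10 to 0.78 (adjusted p = 0.472). Without control replicate 1, the lowest array, it was 0.16.

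Among the aquaglyceroporins, Aqp3 was higher in the mutants. Its log2 signal was 6.32, 8.24 and 6.72 in mutant replicates 1, 2 and 3, against 4.93, 4.97 and 4.44 in control replicates 1, 2 and 3. The groups did not overlap, and mutant replicate 2 stood well above the other mutants. The means were 7.09 ± 1.01 (SD, n = 3) in mutants and 4.78 ± 0.29 (SD, n = 3) in controls, a ratio of 4.97. The log2 fold change was 2.31 (standard error 0.47, 95% confidence interval 1.196 to 3.43, adjusted p = 0.113 from limma), the place 32 among all genes by size of rise. Without mutant replicate 2, whose muscle and matrix markers were low, it was smaller at 1.74 but passed the test, since the remaining mutants lay close together (standard error 0.21, adjusted p = 0.0482, from 0.0482 to 0.857 over the 19 alternatives for Aqp3 fitted and adjusted in limma).

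Of the other probe sets of Aqp3, the first gave 1.59 (standard error 0.48, adjusted p = 0.253) with 5.95, 7.88 and 6.27 in mutants against 4.83, 5.33 and 5.17 in controls. The second gave 2.58 (standard error 0.66, adjusted p = 0.189) with 4.33, 7.05 and 4.61 in mutants against 2.84, 2.64 and 2.76 in controls. In both the mutants lay above the controls and mutant replicate 2 was highest. The control values of the second were within or under the range of 2.75 to 4.01 that 3 Y-linked genes had in controls, which carried female RNA. The last probe set of Aqp3 stayed within that range in all 6 arrays, between 2.94 and 3.15 in mutants and between 2.97 and 3.11 in controls, and cannot tell whether the gene changed. The genes most like Aqp3 over the 6 arrays were Aagab (r = 0.996), Ammecr1 (r = 0.993) and Dscc1, which acts in sister chromatid cohesion (r = 0.989). Each was highest in mutant replicate 2 as well, which came with their choice by correlation over the same arrays.

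Aqp7 and Aqp9, the aquaglyceroporins of fat cells and of liver and leukocytes, had small measured differences that did not pass the test. Aqp7 had 4.02, 3.99 and 4.12 in mutants against 3.9995, 4.28 and 4.05 in controls, close to the upper end of the Y-linked range, and differed by -0.07 on the log2 scale (standard error 0.11, 95% confidence interval -0.33 to 0.19). Its other probe set gave 0.08 (standard error 0.10) with all arrays between 2.71 and 2.93, within or under that range. At such levels the probe sets cannot tell whether Aqp7 changed. Aqp9 had 5.20, 5.12 and 5.10 in mutants against 4.98, 5.16 and 4.90 in controls and differed by 0.12 (standard error 0.10, 95% confidence interval -0.12 to 0.37). The other probe set of Aqp9 gave 0.12 (standard error 0.14), with 4.17, 4.53 and 4.10 in mutants against 4.01, 4.23 and 4.20 in controls. For both genes the groups overlapped. Among 4 measured markers of fat cells and 5 of neutrophils none passed the adjusted test, with median log2 fold changes of -0.67 and 0.22. All 4 fat cell markers averaged lower in the mutants, with overlapping groups. All 5 neutrophil markers averaged higher, and for S100a8 and Csf3r the mutants lay above all controls, as in 14.5% of all genes. The neutrophil markers were dim, between 3.79 and 5.31, where the Y-linked range ended at 4.01. They therefore cannot show that neutrophils were unchanged. The paper reports myeloperoxidase staining in mutants and none in controls.

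Aqp11, an aquaporin of the endoplasmic reticulum, had 7.45, 8.58 and 8.12 in mutants against 8.58, 8.70 and 8.22 in controls. The groups overlapped, with mutant replicate 1 lowest, and the log2 fold change was -0.44 (standard error 0.29, 95% confidence interval -1.12 to 0.23, adjusted p = 0.534). It was -0.14 without mutant replicate 1 and -0.71 without mutant replicate 2. Its other probe sets gave -0.17 (standard error 0.17) and 0.19 (standard error 0.09). The probe sets of Aqp11 thus differed in sign, and the least intense of them, 5.13, 5.22 and 5.15 in mutants against 4.95, 4.92 and 5.06 in controls, was the 1 of the 3 in which the groups did not overlap.

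**Figure D3:**
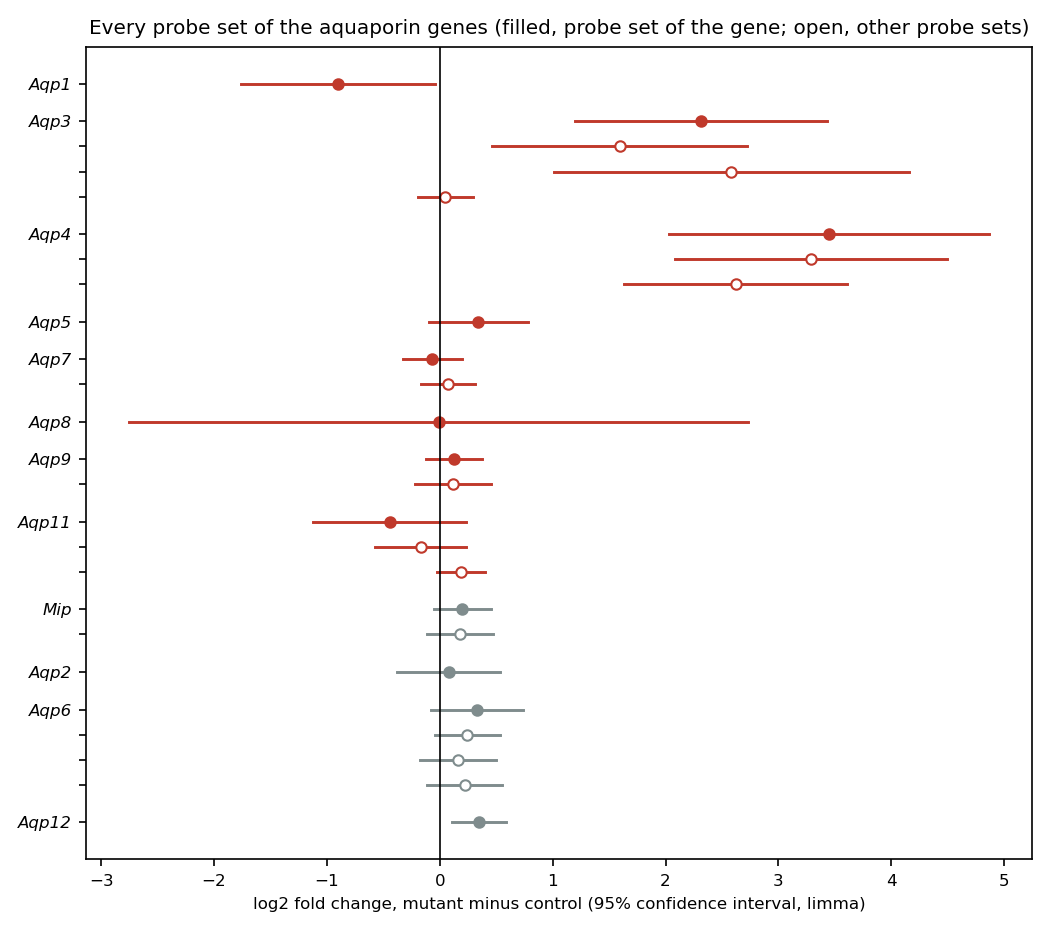
Log2 fold change, mutant minus control, of every probe set of 12 aquaporin genes (horizontal axis; bars, 95% confidence interval from limma; filled, the probe set that represents the gene; open, its other probe sets; grey, genes outside the 8 described). Aqp4 at 3.45 and Aqp3 at 2.31 stand to the right, and the interval of Aqp8 is the widest.

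The other aquaporins of the mouse on the array were Mip of the lens, Aqp2 of the collecting duct, Aqp6 and Aqp12. All had positive log2 fold changes, as had 60.4% of all genes, and none rose. Aqp12 had 6.97, 7.21 and 7.01 in mutants against 6.69, 6.71 and 6.74 in controls, a difference of 0.35 (standard error 0.10, adjusted p = 0.242). It was the only 1 of these 4 in which the mutants lay above all controls, as in 14.5% of all genes. Aqp6 had 0.33, Mip 0.20 and Aqp2 0.08.

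**Figure D4:**
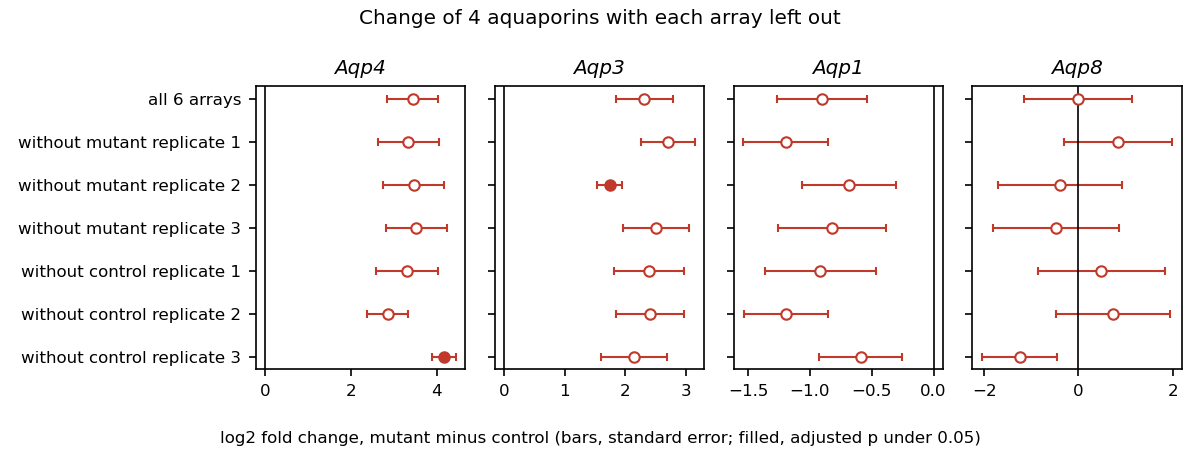
Log2 fold change, mutant minus control, of 4 aquaporins with all 6 arrays and with each array left out in turn (horizontal axis, a separate scale for each gene; bars, standard error; filled symbols, adjusted p under 0.05). Aqp4 passes without control replicate 3, at 4.17, and Aqp3 without mutant replicate 2, at 1.74, while Aqp8 lies on both sides of 0.

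Water follows ions across the colonic epithelium, and 25 measured genes of colonic fluid transport were set beside the aquaporins. By the adjusted test 1 gene rose and 2 fell, where 0.484% of all genes rose and 0.396% fell (of all probe sets, 0.304% and 0.226%), and the median log2 fold change was -0.26, against 0.05 over all genes. Car2, the cytosolic carbonic anhydrase, rose, with 13.71, 13.76 and 13.75 in mutants against 13.01, 13.10 and 13.10 in controls (log2 fold change 0.67, standard error 0.09, adjusted p = 0.0350). Car4, the carbonic anhydrase of the apical membrane, fell, with 8.84, 9.09 and 9.19 in mutants against 11.45, 11.49 and 12.29 in controls (log2 fold change -2.71, standard error 0.24). Clcn2, which conducts chloride, fell too, with 8.99, 9.08 and 8.95 in mutants against 10.18, 9.99 and 9.87 in controls (log2 fold change -1.005, standard error 0.11). For all 3 genes the groups lay apart by more than the spread within either. Of the 25 genes, the groups did not overlap in 11, against 23.3% of all genes. At an unadjusted p of 0.05 or less in limma, 4 were higher and 9 lower, where 10.0% of all genes were higher and 6.18% lower.

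Car2 did not pass the test without any 1 of the 6 arrays, with log2 fold changes between 0.64 and 0.68. Car4 did not pass without mutant replicate 3 (-2.78) or control replicate 1 (-2.86), and Clcn2 not without mutant replicate 1 (-0.998), mutant replicate 3 (-0.98), control replicate 1 (-0.92) or control replicate 3 (-1.07). The number of fluid transport genes called was between 0 and 3 over these fits, and 2 without mutant replicate 2. With the replicate number as a block, which is not known to pair the mice, Car4 alone passed.

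Subunits of the epithelial sodium channel differed from each other. Scnn1b, the beta subunit, had 7.35, 7.46 and 7.53 in mutants against 6.36, 5.26 and 6.46 in controls (log2 fold change 1.42, standard error 0.31, adjusted p = 0.133). The alpha subunit Scnn1a had 0.56 (standard error 0.21), while Scnn1g had -0.02 (standard error 0.15). The sodium-hydrogen exchangers Slc9a2 (-0.72, standard error 0.18, adjusted p = 0.181) and Slc9a3 (-1.05, standard error 0.37, adjusted p = 0.318) did not pass the test. Both were below all controls in every mutant, as were 8.86% of all genes. Slc12a2, the basolateral sodium-potassium-chloride cotransporter, had 11.63, 10.77 and 10.66 in mutants against 11.31, 10.61 and 11.92 in controls, highest in mutant replicate 1 and control replicate 3, in which Aqp8 was lowest. Ano1, a calcium-activated chloride channel, had 8.63, 7.79 and 7.90 in mutants against 8.58, 8.05 and 9.17 in controls, and was highest in these arrays too. Of the 25 genes, 6 were highest and 6 lowest in both of these arrays, where 12.7% of all genes were highest and 17.1% lowest.

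Because Aqp3, Aqp7 and Aqp9 carry glycerol, 12 measured genes of glycerol handling were compared too. None rose or fell in limma, and 3 were higher and 2 lower at an unadjusted p of 0.05 or less, where 10.0% of all genes were higher and 6.18% lower. The median log2 fold change was 0.13. Those with the smallest p were Gpat3, which joins a fatty acid to glycerol phosphate (0.58, standard error 0.10, adjusted p = 0.0825), Dgat2, which completes triglycerides (1.60, standard error 0.36, adjusted p = 0.147), and Mogat2, a monoacylglycerol acyltransferase (0.84, standard error 0.19, adjusted p = 0.152). All 3 were higher in every mutant than in any control, as were 14.5% of all genes. Dgat2 had 10.63, 10.99 and 11.13 in mutants against 9.43, 10.01 and 8.51 in controls. The hormone-sensitive lipase Lipe had -0.58 (standard error 0.22) with overlapping groups.

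**Figure D5:**
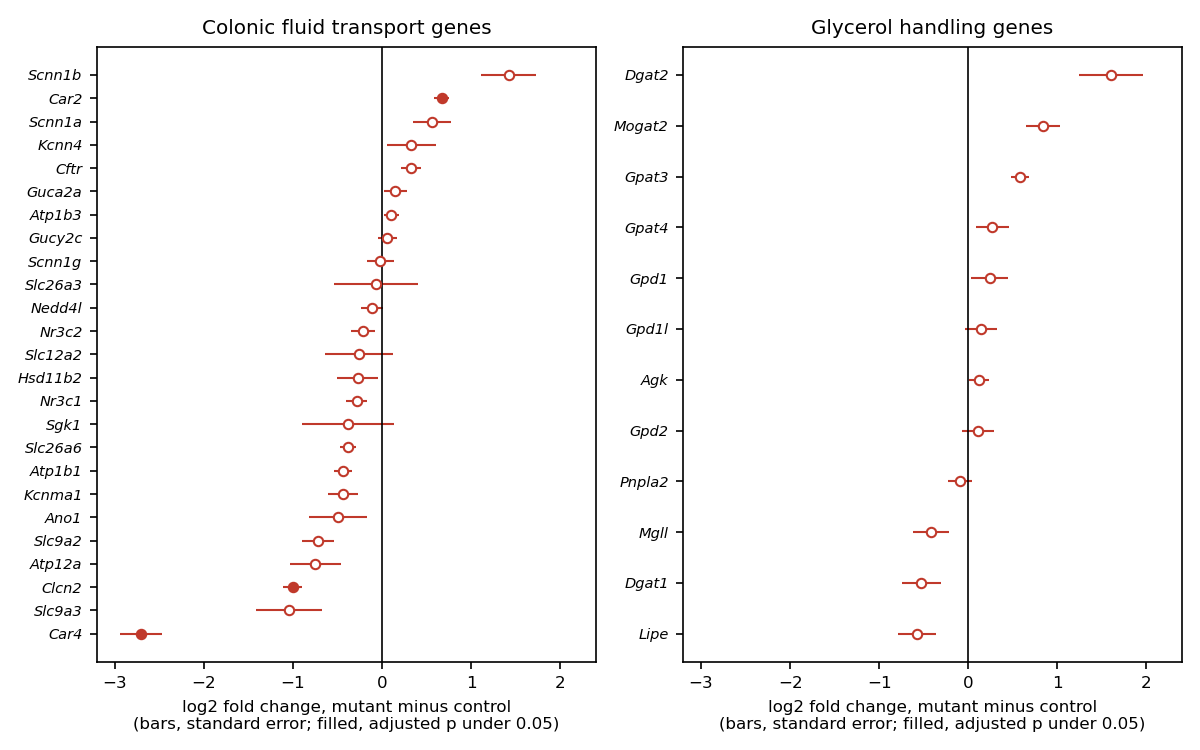
Log2 fold change, mutant minus control, of 25 genes of colonic fluid transport and 12 of glycerol handling (horizontal axis; bars, standard error from limma; filled symbols, adjusted p under 0.05). Car4 at -2.71, Clcn2 at -1.005 and Car2 at 0.67 are the genes that passed the test.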

How the data were processed

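RNA of 6 mice, 3 Hnf4α mutants and 3 controls, was measured on 1 array each. RMA was used by the authors to normalize the arrays, per the labels, so the deposited values are log2 signals with array medians between 5.43 and 5.53. They were used as deposited. After 64 control probe sets were left out, 45037 were fitted with limma 3.58.1 in R 4.3.3, mutant minus control, with Benjamini-Hochberg adjustment over all of them. Gene names came from the platform annotation, with 34945 probe sets naming 1 gene, 932 several and 9160 none. The fit was tested on simulated data. SAM was run as an alternative with p pooled over 20 assignments of the arrays. Groups of 3 limit the precision. The labels do not say whether a replicate number marks a shared litter or day.

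All 8 members are named with every probe set, and of the pathway lists the called genes or the 3 with the smallest p. Others, such as Scnn1b, Slc9a2, Slc9a3, Slc12a2, Ano1 and Lipe, were picked after their values were seen. Members and lists were chosen with earlier results of these data known. Some listed genes were not analysed here.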

Additional observations from a re-analysis of the deposited data

How the results depend on the processing

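The count of 0 aquaporin genes called by limma held in every alternative that adjusted p over all probe sets, except that leaving out 1 array gave between 0 and 1. Aqp3 was called without mutant replicate 2 and Aqp4 without control replicate 3. Unadjusted, limma called 3 and SAM 3 at p up to 0.05, and 2 by limma with a ratio of 2 or more. The 239 probe sets called became 599 with array weights, 62 with the replicate number as a block, 48 with the labelled sex as a covariate and 679 at an unadjusted p with a ratio of 2. They became 5853 by limma and 5776 by SAM at an unadjusted p, and 0 by SAM after adjustment. Leaving out 1 array gave between 39 (without control replicate 1) and 336 (without control replicate 2).

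Aqp4 stayed higher in the mutants in every alternative run, and Aqp3 in all but its dimmest probe set, at 0.05 with overlapping groups. Aqp8 turned to 0.76 with array weights, to 0.0218 with each array centred on its median, and to 0.84, 0.49 and 0.73 without mutant replicate 1, control replicate 1 and control replicate 2. Leaving out 1 array gave a range of -1.25 to 0.84 for Aqp8, 0.16 to 0.46 for Aqp5, 0.06 to 0.20 for Aqp9 and -0.71 to -0.14 for Aqp11. Aqp7 turned to 0.0028 with array weights, 0.0203 without control replicate 2 (range -0.12 to 0.0203), 0.0756 in its other probe set and 0.0048 as the mean of both, and Aqp11 to 0.19 in its least intense probe set. The causes were not tested. The fit with the labelled sex rests on mutant replicate 1 alone against the controls, under a label its RNA goes against, so it does not adjust for sex. It gave 1.54 for Aqp3, -0.31 for Aqp1 and -1.71 for Aqp8, and none of Car2, Car4 and Clcn2 passed.

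Whether the replicate numbers pair the mice is not known. Same-numbered mutants and controls had deviations correlated at -0.02, 0.25 and -0.15, and not every array correlated best with its own number. With 3 mice a group, such correlations cannot settle whether mice were paired. With the replicate block no aquaporin was called (Aqp3 2.31, adjusted p = 0.113, Aqp4 3.45, adjusted p = 0.114 in limma), Car4 passed, and Car2 (adjusted p = 0.0922) and Clcn2 (adjusted p = 0.0680) did not. Over its limma alternatives the adjusted p was between 0.00866 and 0.382 for Car2 and between 0.0122 and 0.234 for Clcn2. SAM with adjustment, limma at an unadjusted p alone and all alternatives for the pathway genes were added after the data were seen.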

Other observations

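The neighbours of the aquaporin genes on the chromosome were read from the order of protein-coding genes in RefSeq. Aqp3 lies between Aqp7 and Nol6, and beside its log2 fold change of 2.31 these had -0.07 (standard error 0.11) and 0.08 (standard error 0.10). Aqp4 lies between Kctd1 (0.12, standard error 0.09) and Chst9 (0.09, standard error 0.16). Aqp5 lies between Aqp2 (0.08, standard error 0.19) and Aqp6 (0.33, standard error 0.17). None of these neighbours rose or fell in limma.

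Among 2568 genes with a range of at least 1 over the 6 arrays, those most like Aqp11 were Abcg2, a drug efflux pump (r = 0.988), Adtrp (r = 0.982) and Fahd1 (r = 0.970). Abcg2 had 8.64, 10.49 and 9.91 in mutants against 10.72, 11.03 and 9.84 in controls, lowest in the same mutant and the same control as Aqp11. Those most like Aqp1 were Sox13, Prnp and Cd83, each at r = 0.989, and all 3 were highest in control replicate 3 and lowest in mutant replicate 2. These correlations rest on 6 arrays in 2 groups and are descriptions. As the genes were picked by them, the high and low arrays they share with Aqp11 or Aqp1 came with that choice.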
